A study of Bos taurus with 39 samples.

Results

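The genes of MHC class II antigen presentation were followed in milk somatic cells, the leukocytes and shed epithelial cells that milk carries, of 39 Holstein cows. The set was chosen by name and held 8 genes: BOLA-DRA, BOLA-DRB3, BOLA-DMA, BOLA-DMB, BOLA-DOA, CD74, CIITA and CD86. Of these, 7 had a row among the 21590 genes of the expression table and all 7 passed the filter on low values, at least 1 RPKM (reads scaled by gene length and library total) in at least 17 cows, which kept 10636 genes. BOLA-DRB3, the main beta chain partner of BOLA-DRA in cattle, had no row under that name and was not analysed here. The cows were extremes of feed efficiency. By their labels 22 were LOW RFI and 17 HIGH RFI. RFI is read as residual feed intake, by which LOW stands for the more efficient animals. No treatment, age or lactation stage is given in the sources used here. Each cow gave 1 library, and numbers such as HIGH RFI 17 are names in label order.

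MHC class II molecules are pairs of an alpha and a beta chain that carry peptides from engulfed proteins to the surface of antigen-presenting cells, where CD4+ T cells read them. BOLA is the name of the MHC in cattle. The invariant chain CD74 fills the peptide groove of the new molecule and guides it to the endosome, DM (BOLA-DMA with BOLA-DMB) exchanges the remnant of CD74 for peptide, and DO, of which BOLA-DOA is the alpha chain, restrains DM. CIITA is the transactivator on which transcription of these genes depends, and CD86 is the costimulatory ligand that a T cell needs beside the peptide. In milk, macrophages, dendritic cells and B cells are the usual carriers of class II molecules.

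The libraries held 41637742 to 204905052 mapped reads. Transcripts of 7 milk protein genes took 0.103% to 80.1% of all RPKM of a library, and this share lowers the RPKM of every other gene in it. The 4 libraries least correlated with the others were LOW RFI 18, LOW RFI 20, HIGH RFI 11 and HIGH RFI 17. The column names carried a tag such as Sep19, read here as a month from September 2019 to June 2020, and 8 of them a further mark after the animal number (7 LOW RFI, 1 HIGH RFI). All 6 cows of February 2020 were HIGH RFI. In bulk samples such as these, fewer cells of a type and less RNA per cell cannot be told apart.

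CD74 stood highest of the 7 genes in every cow. Its RPKM ran from 33.4 over a median of 819 to 2957 in LOW RFI and from 21.0 over 1133 to 2689 in HIGH RFI cows, with respective means of 1087 ± 787 (SD, n = 22) and 1254 ± 718 (SD, n = 17). BOLA-DRA, the alpha chain of the DR molecule, followed with 6.35, 184 and 510.4 RPKM as lowest, median and highest in LOW RFI and 5.01, 225 and 671 in HIGH RFI cows. Both genes spanned the same wide range in both groups, and the groups overlapped almost completely. A median of 154632 reads lay behind CD74 and of 42594 reads behind BOLA-DRA.

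The genes that edit the bound peptide were an order lower. BOLA-DMB, the beta chain of DM, had 0.451, 16.8 and 51.8 RPKM as lowest, median and highest in LOW RFI and 0.464, 23.9 and 74.7 in HIGH RFI cows. BOLA-DMA, its alpha partner, had 0.573, 13.6 and 38.3 RPKM in LOW RFI and 0.418, 20.2 and 47.0 in HIGH RFI cows. BOLA-DOA, the alpha chain of the restraining molecule, was the lowest of the 7, with 0.0496, 1.52 and 4.78 RPKM in LOW RFI and 0.0223, 2.10 and 5.99 in HIGH RFI cows. In each of the 3 the LOW RFI median was the lower, inside a shared range. BOLA-DOA also had the fewest reads, a median of 483 and as few as 4 in 1 cow, so its lowest values are the least certain.

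The transactivator CIITA was about as scarce as BOLA-DOA, with 0.0438, 2.44 and 5.54 RPKM in LOW RFI and 0.0303, 2.503 and 9.20 in HIGH RFI cows. The costimulatory CD86 was about as abundant as DM, with 0.686, 22.7 and 87.1 RPKM in LOW RFI and 0.839, 28.6 and 59.8 in HIGH RFI cows. The CIITA medians of the groups lay close together, and 11 of 22 LOW RFI cows fell below the HIGH RFI median. For BOLA-DOA this held for 17 of 22, and for the other 5 genes for 12 to 14 of 22.

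**Figure D1:**
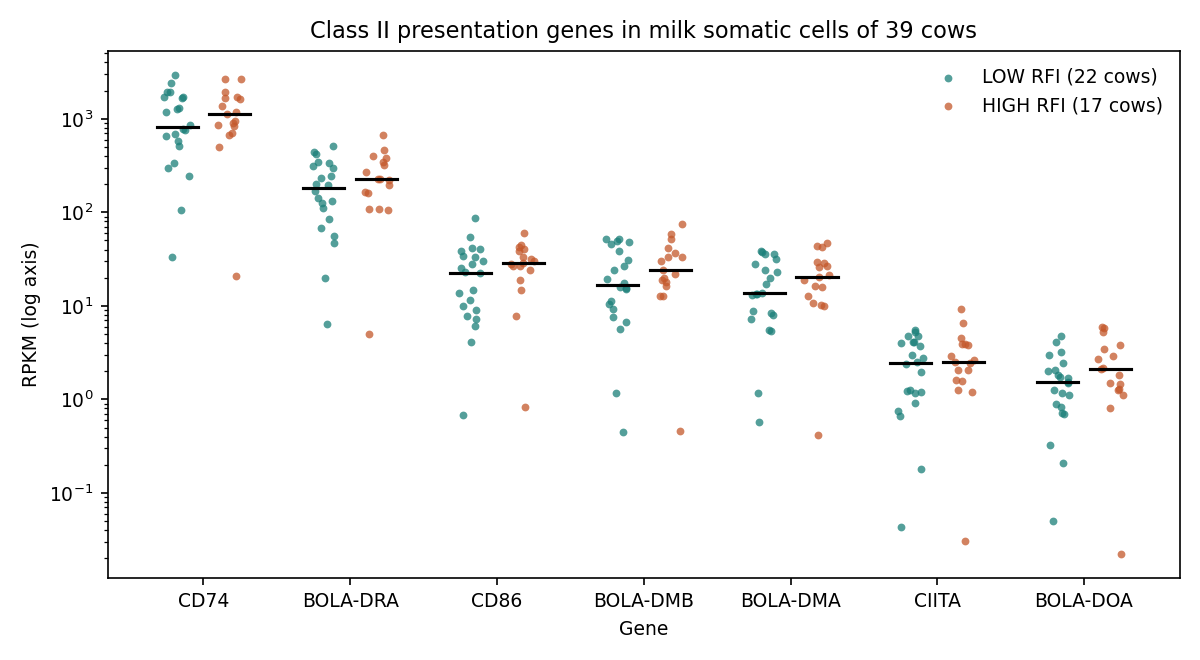
RPKM of the 7 class II presentation genes on a log axis, 1 point a cow, LOW RFI (22 cows) left and HIGH RFI (17 cows) right in each pair, with a black line at the group median. The groups overlap in every gene, and the same few cows lie far below the rest, down to 21.0 RPKM for CD74 and 0.0223 RPKM for BOLA-DOA.

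The order of the levels, which RPKM allows because it is per length, was nearly fixed within a cow. CD74 exceeded BOLA-DRA in 39 of 39 cows, BOLA-DRA exceeded CD86 in 39 of 39, BOLA-DMB exceeded BOLA-DMA in 37 of 39, and BOLA-DMA exceeded CIITA in 39 of 39. CD86 and BOLA-DMB were not separated, with CD86 above in 20 of 39 cows, and CIITA was above BOLA-DOA in 28 of 39.

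The same cows were low throughout. HIGH RFI 17, LOW RFI 20 and LOW RFI 18 were the 3 lowest cows for each of the 7 genes, and these 3 libraries had the highest milk protein shares, 80.1%, 66.8% and 68.7%. In HIGH RFI 17, CD74 stood at 21.0 RPKM and BOLA-DRA at 5.01, against medians over all cows of 938 and 201. HIGH RFI 1 and HIGH RFI 12 were each among the 4 highest cows for 6 of the 7 genes, with 0.213% and 0.103% of RPKM in milk protein genes. The highest CD86 value, 87.1 RPKM, came from LOW RFI 17, and the highest CD74 value, 2957, from LOW RFI 13. Across the 39 cows the correlation with the milk protein share, a relation added after the data were seen, was negative for all 7 genes. It ran from r = -0.634 (rho = -0.598) for BOLA-DOA to r = -0.849 (rho = -0.778) for CD86, with permutation p from 1e-05 to 2e-05 before and at most 2e-05 after adjustment over the 7 relations. The months taken out, r was -0.531 and -0.832 for those genes, and without the 2 cows farthest from the median share it was -0.522 and -0.790. With the milk protein genes left out of the scaling, which removes their direct effect on RPKM, r still ran from -0.494 (BOLA-DOA) to -0.760 (CD86).

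The study asks which genes differ between the feed efficiency extremes, and none of the 7 did so here. In limma-trend on log2(RPKM + 1), 0 of 7 genes passed a Benjamini-Hochberg adjusted p of 0.05, as for all genes tested (0%). At an unadjusted p of 0.05, 633 genes (5.95%) were below it, 587 of them (5.52%) lower in LOW RFI, and none of the 7 was. All 7 estimates were lower in LOW RFI, as were those of 73% of all genes, with a median of -0.42 over the 7 against -0.12 over all genes on the log2 scale. Without the 8 marked libraries, 7 of them LOW RFI, the median over the 7 was -0.08 and the all-gene median -0.02, with BOLA-DRA at -0.0067 and CD74 at 0.07.

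The largest estimate was that of BOLA-DMB, -0.51 (SE 0.42, limma adjusted p = 0.770), which is -0.40 relative to the median of all genes. BOLA-DOA had the smallest unadjusted p, 0.0897, with an estimate of -0.37 (SE 0.21, limma adjusted p = 0.769). BOLA-DRA stood at -0.43 (SE 0.46), CD74 at -0.34 (SE 0.48) and CIITA at -0.20 (SE 0.24), each within 1 SE of 0. CD86 (-0.44, SE 0.39) and BOLA-DMA (-0.42, SE 0.38) lay just beyond 1 SE, with limma adjusted p of 0.776 and 0.777. These standard errors leave room for differences between the groups of more than a log2 of 0.5 in either direction for CD74.

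The direction of these estimates moved with the month. With month as a factor, 4 of 7 estimates were lower in LOW RFI, beside 51.6% of all genes. The median over the 7 was then -0.02, while the all-gene median was -0.01. Months with cows of 1 group only, such as February 2020 with 6 HIGH RFI cows, do not inform the group estimates of that fit. In September 2019 (4 LOW RFI, 2 HIGH RFI cows) all 7 were lower in LOW RFI, from -0.13 for CIITA to -1.31 for CD86, and in June 2020 (6 LOW RFI, 3 HIGH RFI cows, HIGH RFI 17 among them) all 7 were higher, from 0.42 for CIITA to 1.09 for CD74. In January 2020 (2 and 2 cows) BOLA-DOA was lower (-0.47) and the other 6 were higher, from 0.11 for BOLA-DMB to 0.53 for CIITA. No exact permutation p within a month was below 0.133. With 4 against 2 cows, as in September 2019, it cannot go below 0.133, and BOLA-DRA stood at that limit there. With 2 against 2 cows it cannot go below 0.333. In September 2019 and January 2020 no difference, however large, could therefore have passed, and the test decides nothing there. The other months held 1 group only or a single HIGH RFI cow.

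Macrophage, neutrophil and dendritic cell markers had the same direction as the 7 estimates, as had 73% of all genes, whose median difference was -0.12. The median difference over 16 tested macrophage markers was -0.40, 16 of 16 being lower in LOW RFI, and their summed RPKM ran from 126 to 19082 in LOW RFI and from 141 to 14277 in HIGH RFI cows. Of the neutrophil markers 9 of 9 were lower (median -0.98; summed RPKM 26.6 to 3856 and 18.4 to 3823), of the dendritic cell markers 9 of 9 (median -0.33; 14.2 to 417 and 16.2 to 527), and of the B and plasma cell markers 5 of 5 (median -0.28; 1.30 to 30.2 and 0.761 to 50.6). Of the T cell markers 6 of 10 and of the mammary epithelial markers 1 of 12 were lower. The 7 milk protein genes were all higher in LOW RFI, with a median difference of 1.00. No marker in these lists passed the test. The mean log2(RPKM + 1) of the tested markers of a cell type did not pass between the groups for any of the 6 types (two-sided permutation p, adjusted over the 6, from 0.353 to 0.874). The dendritic cell markers XCR1 and CLEC9A and the B cell markers MS4A1 and PAX5 were below the filter, and no marker had a median of 0. With mammary epithelial, neutrophil and macrophage scores as covariates, 2 of 7 estimates (BOLA-DOA -0.19, CD86 -0.07) were negative and the other 5 lay between 0.00030 and 0.20. The part of cell makeup in the group estimates was not tested beyond this fit.

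**Figure D2:**
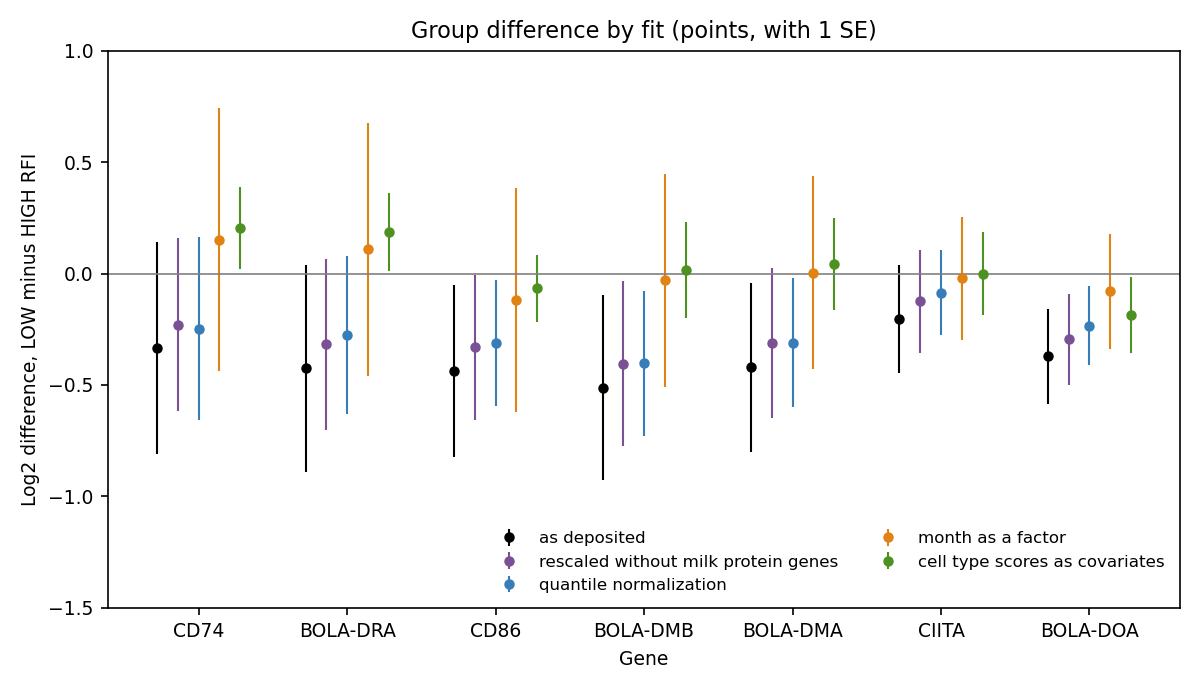
Log2 difference of LOW RFI minus HIGH RFI for the 7 genes, as points with 1 SE, in the fit of the deposited values and in 4 other fits. The deposited values give estimates from -0.51 to -0.20, and the fits with month or with cell type scores lie around 0, from -0.19 to 0.20.

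Across cows the 7 genes varied together, and with much of the table. The median r of each with all genes lay between 0.489 (BOLA-DOA) and 0.668 (CD86). The tests here are against an r of 0, not against that level. All 21 pairs were positively correlated over the 39 cows (permutation p at most 2e-05, Benjamini-Hochberg adjusted over the 21 pairs at most 2e-05, where 1e-05 is the smallest that the resamples can give), with a median r of 0.878. The chains of DM were the closest pair, BOLA-DMA with BOLA-DMB at r = 0.995, followed by BOLA-DRA with CD74 at 0.984. The loosest was BOLA-DOA with CD86, at r = 0.627. All 21 pairs passed with the month means taken out and without the 2 cows farthest from the median. Without the 4 least correlated libraries, which include the 3 cows lowest in all 7 genes, the median r was 0.774 and the range 0.397 to 0.988.

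CD86 parted from the others once the scores of some cell types were taken out. With the mammary epithelial, neutrophil and macrophage scores removed, r of CD86 with the other 6 genes lay between -0.03 and 0.28, while the other 15 pairs kept 0.56 to 0.98. BOLA-DMA with BOLA-DMB then stood at 0.98, BOLA-DRA with CD74 at 0.94, and CIITA with BOLA-DMA and BOLA-DMB at 0.81 and 0.82. CIITA with BOLA-DRA and with CD74 was at 0.59 and 0.56. These values are a description, since the scores come from the same libraries. The dendritic cell, B and plasma cell and T cell scores were not removed, and the part of cell makeup in the remaining r was not tested.

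**Figure D3:**
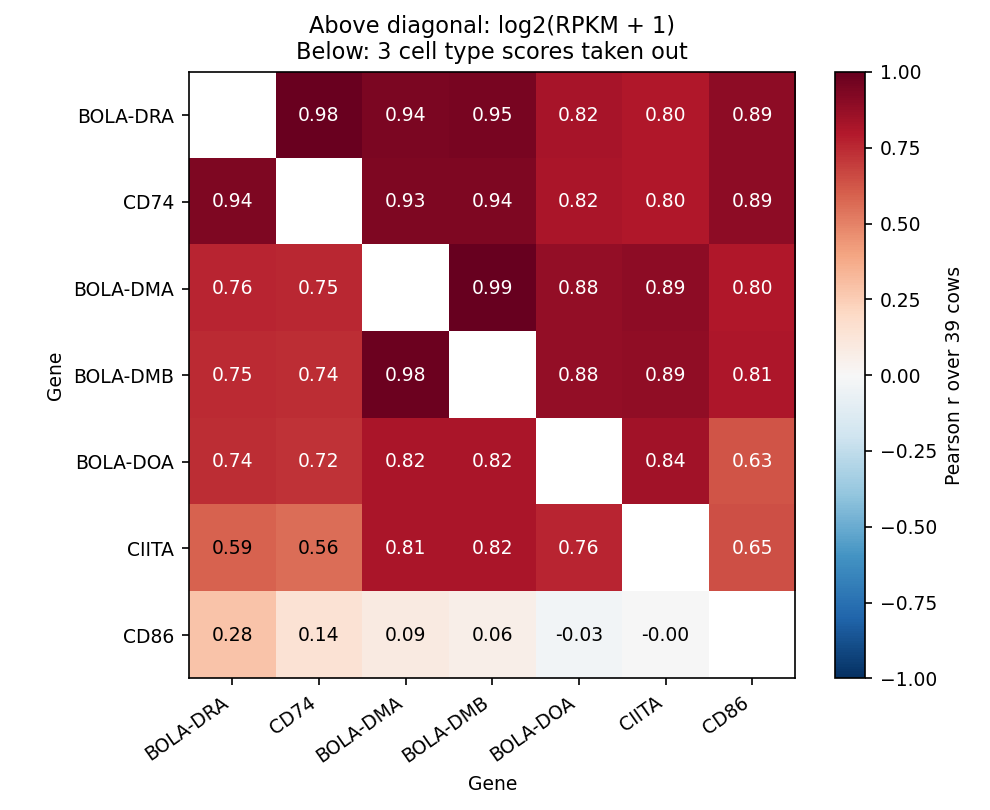
Pearson r between the 7 genes over 39 cows, above the diagonal on log2(RPKM + 1) and below it with the mammary epithelial, neutrophil and macrophage scores taken out. Above the diagonal every pair is at 0.63 or more, and below it the CD86 row lies between -0.03 and 0.28 while the other pairs stay at 0.56 or more.

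Each gene was set against the mean log2(RPKM + 1) of markers for 6 cell types, 42 relations in all, of which 34 passed an adjusted permutation p of 0.05, 34 with month means taken out and 32 without the 2 cows farthest from the median score. CD86 followed the macrophage score most closely, at r = 0.938 (rho = 0.828, permutation p = 1e-05, adjusted 2.2e-05), and r was 0.942 with months taken out, 0.885 without the 2 farthest cows and 0.863 without the 4 least correlated libraries. CD74 and BOLA-DRA stood at 0.935 and 0.922 with that score, BOLA-DMB and BOLA-DMA at 0.856 and 0.848, and CIITA and BOLA-DOA at 0.6996 and 0.675. BOLA-DRA had 0.924 with the dendritic cell score, about the same as with the macrophage score.

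BOLA-DOA was the only one of the 7 whose highest r was with the B and plasma cell score, 0.753 (rho = 0.712, permutation p = 1e-05, adjusted 2.2e-05), though its r with the dendritic cell score, 0.729, was close and the difference was not tested. CD86 had the lowest r with the B and plasma cell score, 0.401, and this did not pass in libraries rescaled without the milk protein genes (0.244). The B and plasma cell score itself rests on the 5 of 11 markers that passed the filter on low values. With the T cell score r lay between 0.248 (CD86) and 0.540 (CIITA), and it passed for all but CD86. Without the 4 least correlated libraries no T cell relation passed, and those of BOLA-DRA, CD74 and CD86 were negative. The mammary epithelial score gave r between -0.307 and -0.055, none of which passed. In libraries rescaled without the milk protein genes, 6 of those 7 relations passed with negative r, and so did they without the 4 least correlated libraries.

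Ratios between the genes separate their proportions from their shared level. RPKM of CD74 was 3.74 to 7.28 times that of BOLA-DRA (median 5.25), and BOLA-DMB was 0.788 to 1.59 times BOLA-DMA (median 1.25). BOLA-DOA was 0.0480 to 0.179 times BOLA-DMA (median 0.108), so the inhibitor chain stayed well below the DM chain in every cow. CD86 was 0.0495 (HIGH RFI 7) to 0.326 (LOW RFI 6) times BOLA-DRA, and CIITA 0.00512 (LOW RFI 7) to 0.0383 (LOW RFI 6) times BOLA-DRA. The groups were compared on ratios of RPKM + 1, as planned, and none of the 5 log2 ratios passed (two-sided permutation p adjusted over the 5 from 0.607 to 0.956), with differences of LOW minus HIGH RFI from -0.09 for BOLA-DMB to BOLA-DMA up to 0.22 for CIITA to BOLA-DRA. That pseudocount pulls ratios of low genes together. On the ratios as printed, with none, the differences ran from -0.11 for BOLA-DMB to BOLA-DMA to 0.11 for CIITA to BOLA-DRA, and none passed.

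Several proportions moved with cell type scores. Of 30 relations between the 5 log2 ratios, without a pseudocount, and the 6 scores, added after the data were seen, 8 passed an adjusted permutation p of 0.05. The BOLA-DMB to BOLA-DMA ratio was higher in cows with a higher dendritic cell score (r = 0.694, rho = 0.693, permutation p = 1e-05, adjusted 0.00015), macrophage score (r = 0.633) and neutrophil score (r = 0.609). Within the groups, r with the dendritic cell score was 0.861 in LOW RFI and 0.378 in HIGH RFI cows, and with the macrophage score 0.805 and 0.307, a difference that was not tested. Over all cows r with the dendritic cell score was 0.660 with months taken out, 0.616 without the 2 farthest cows and 0.581 without the 4 least correlated libraries. CIITA relative to BOLA-DRA was higher in cows with a higher T cell score (r = 0.607, rho = 0.591, permutation p = 7e-05, adjusted 0.000525) and a higher mammary epithelial score (r = 0.565, rho = 0.557). With months taken out these were 0.518 and 0.505, without the 2 farthest cows 0.546 and 0.619, and without the 4 least correlated libraries 0.539 and 0.558.

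The 3 weaker relations depended on the setting. CIITA to BOLA-DRA with the B and plasma cell score (r = 0.402, adjusted permutation p = 0.0456) did not pass with months taken out (0.336) or without the 4 least correlated libraries (0.303). BOLA-DOA to BOLA-DMA with the same score (r = 0.398, adjusted permutation p = 0.0456) and CD74 to BOLA-DRA with the neutrophil score (r = -0.468, adjusted permutation p = 0.0140) did not pass without the 2 farthest cows, at 0.355 and -0.361, and the latter did not pass with months taken out (-0.423). BOLA-DOA to BOLA-DMA did pass with months taken out (0.496), and both passed without the 4 least correlated libraries (0.458 and -0.589) and in libraries rescaled without the milk protein genes (0.453 and -0.524).

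**Figure D4:**
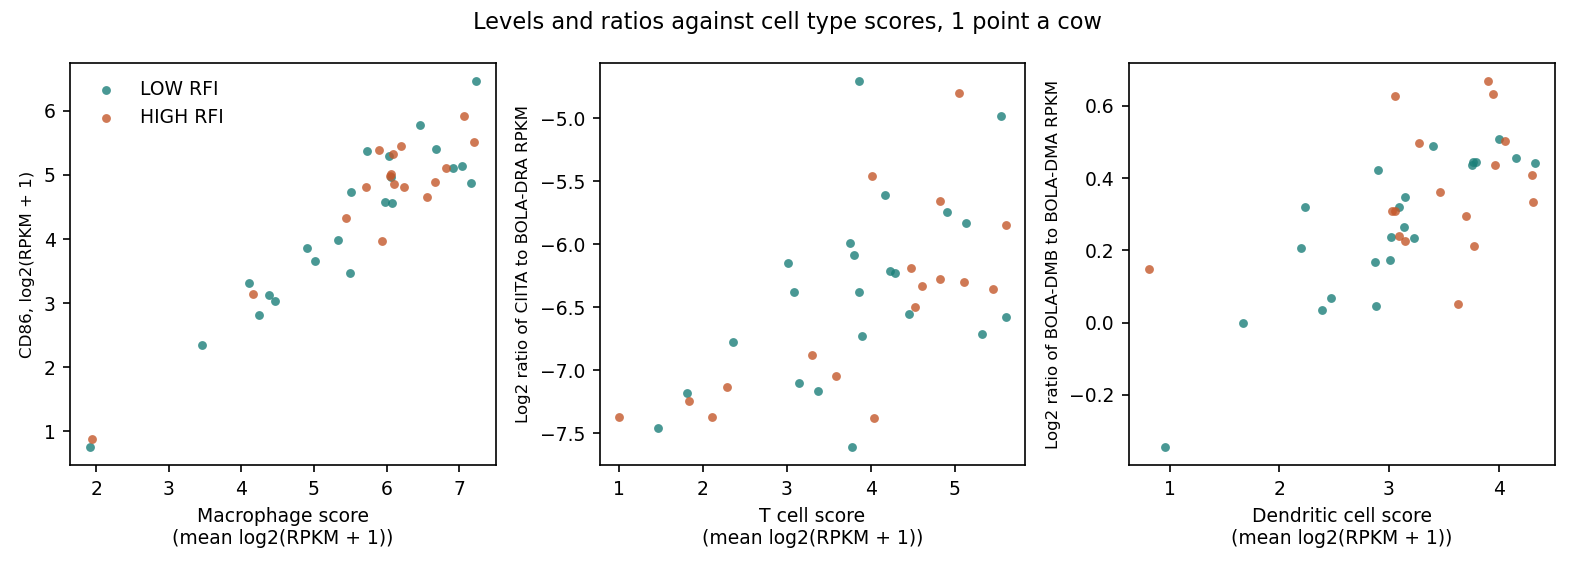
CD86 against the macrophage score (left), the log2 ratio of CIITA to BOLA-DRA RPKM against the T cell score (middle) and the log2 ratio of BOLA-DMB to BOLA-DMA RPKM against the dendritic cell score (right), 1 point a cow, coloured by group. The points follow the score closely for CD86 (r = 0.938) and more loosely for the ratios (r = 0.607 and 0.694). For the BOLA-DMB to BOLA-DMA ratio r was 0.861 in LOW RFI and 0.378 in HIGH RFI cows.

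The genes most like each of the 7 were found by Pearson r of log2(RPKM + 1) over the 39 cows. BLA-DQB, the name under which the table lists a DQ beta chain, led for BOLA-DRA (r = 0.986), CD74 (0.979), BOLA-DMB (0.950) and BOLA-DMA (0.945). BOLA-DRA was next most like SLC15A3 (0.956) and PLCG2 (0.953), and CD74 most like SLC15A3 and CSF1R (both 0.963), the latter a macrophage growth factor receptor. BOLA-DMA was next most like ACSL5 (0.940) and ARHGAP4 (0.938), and BOLA-DMB like SYNGR2 (0.948) and ACSL5 (0.947). In libraries rescaled without the milk protein genes, r with BOLA-DMB was 0.795 for SYNGR2 and 0.928 for ACSL5. CIITA was most like TMEM268 (0.929), RFX5 (0.917) and TRERF1 (0.913). RFX5 is a subunit of the RFX complex that binds class II promoters beside CIITA. CD86 was most like GGTA1 (0.976), SNX24 (0.971) and PKIB (0.967), and BOLA-DOA most like P2RY6 (0.889), GPR35 (0.870) and TRERF1 (0.869). Many genes shared the pattern: the median r over all genes lay between 0.489 (BOLA-DOA) and 0.668 (CD86), and 444 genes were above 0.9 with CD74, 228 with CD86, 6 with CIITA and 0 with BOLA-DOA.

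Other genes of the pathway were taken from lists by role, and none of them passed the test. Of 12 further class II chains 7 had a row and 4 were tested, all 4 lower in LOW RFI (0 called, median -0.69 against -0.12 over all genes), and 3 of them with month as a factor. Of all genes 73% were lower, and 51.6% with month as a factor. BLA-DQB was the most abundant, with 340.1 ± 234 RPKM in LOW RFI (SD, n = 22) against 428 ± 217 in HIGH RFI (SD, n = 17). BOLA-DQA5, a DQ alpha chain, had 18.4 ± 23.6 and 30.9 ± 33.2 RPKM, a log2 difference of -0.99 (SE 0.56, limma adjusted p = 0.769), and BOLA-DQB, a DQ beta chain, 25.5 ± 34.5 and 41.7 ± 43.5 RPKM. The tested DO beta chain BOLA-DOB differed by -0.25 (SE 0.23). BOLA-DYA, BOLA-DYB and DSB stayed below the filter, at no more than 0.284 RPKM in any cow. Near-identical DQ copies may share reads. DQ genes also vary between haplotypes, and whether reads of alleles unlike the reference were counted was not tested, so a low DQ value, and with it the DQ group differences and the list's median, may not be low expression.

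Among 10 genes of peptide loading and turnover 9 were lower and 1, CTSL, was higher in LOW RFI, with 0 called. With month as a factor 5 of the 10 were lower, under quantile normalization 6 and in libraries rescaled without the milk protein genes 7. Of all genes 73% were lower in the fit of the deposited values, and 51.6%, 46.9% and 54.9% respectively in these settings. Among the proteases that cut antigen and CD74, CTSB was abundant, at 3671 ± 2763 (SD, n = 22) and 4400 ± 2144 RPKM (SD, n = 17) in LOW and HIGH RFI cows. LGMN followed at 519 ± 402 and 557 ± 276, and CTSS at 332 ± 274 and 427 ± 252. The protease CTSL was scarce, at 1.27 ± 0.784 and 0.874 ± 0.818 RPKM. MARCHF1, the ubiquitin ligase that removes class II molecules and CD86 from the cell surface, had the smallest unadjusted p of these lists. Its RPKM was 0.0599, 1.19 and 4.27 as lowest, median and highest in LOW RFI and 0.0874, 3.63 and 7.77 in HIGH RFI cows, and in 20 of 22 LOW RFI cows it was below the HIGH RFI median. The log2 difference was -0.72 (SE 0.24, unadjusted limma p = 0.0048, adjusted 0.769), and -0.53 with month as a factor. The groups overlapped, and the difference did not pass over all genes.

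Of 16 genes of class II transcription 15 were lower in LOW RFI and RFXANK was not, with 0 called, beside 73% of all genes lower. The most abundant were the interferon gamma receptor chain IFNGR2 (115 ± 70.8 RPKM in LOW RFI, SD, n = 22, and 147 ± 88.1 in HIGH RFI cows, SD, n = 17), the kinase JAK1 (68.5 ± 20.1 and 78.7 ± 35.2) and the myeloid factor SPI1 (61.4 ± 44.6 and 78.6 ± 35.6). CREB1, a factor that binds class II promoters, had the smallest p, with 2.05 ± 1.28 and 4.45 ± 5.30 RPKM and a log2 difference of -0.58 (SE 0.23, limma adjusted p = 0.769). HIGH RFI 11, a library among the 4 least correlated, held its highest value, 23.9 RPKM, and without that library the difference was -0.42. With month as a factor it was -0.18. With month as a factor 7 of the 16 were lower, under quantile normalization 11 and rescaled 12. The all-gene shares in these settings were 51.6%, 46.9% and 54.9%.

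Of 11 costimulation genes 10 had a row and 7 were tested, all 7 lower in LOW RFI and 0 called, beside 73% of all genes lower. CD83, a marker of mature dendritic cells, had 41.5 ± 30.9 and 50.3 ± 22.9 RPKM (SD, n = 22 and 17), CD40 18.4 ± 20.2 and 26.2 ± 24.2, and CD4, on the T cell side, 17.3 ± 14.3 and 18.4 ± 12.5. CD80, the other ligand of CD28 beside CD86, had 1.95 ± 2.05 and 3.63 ± 3.66 RPKM and a log2 difference of -0.59 (SE 0.26, limma adjusted p = 0.769), which was -0.45 without HIGH RFI 11, the library with its highest value, and -0.16 with month as a factor. With month as a factor 5 of the 7 were lower, beside 51.6% of all genes. The mean RPKM of CD86, 24.7 ± 20.1 in LOW RFI (n = 22) and 29.4 ± 14.2 in HIGH RFI (n = 17), stood well above that of CD80 in both groups.

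**Figure D5:**
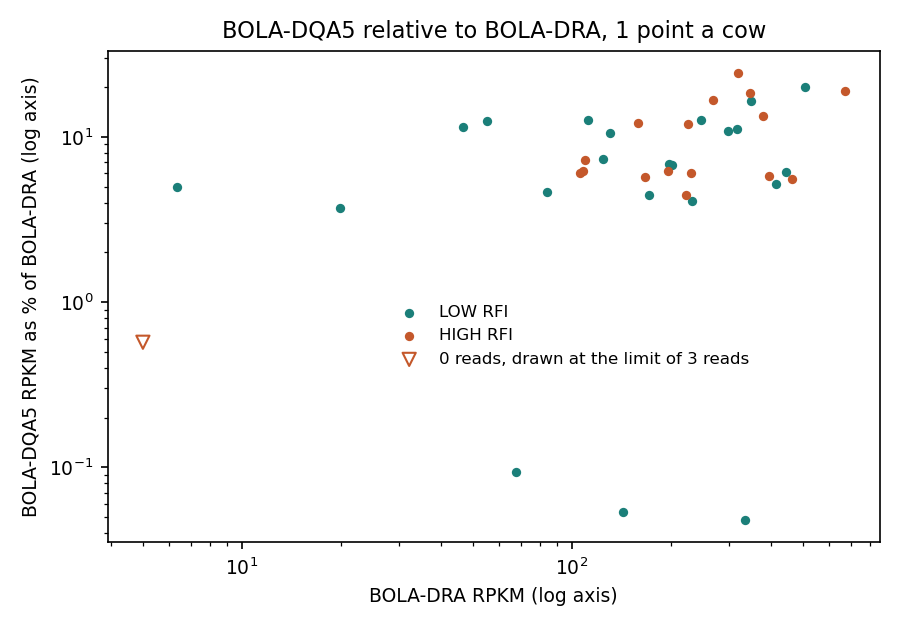
BOLA-DQA5 RPKM as a percentage of BOLA-DRA RPKM against BOLA-DRA RPKM, both on log axes, 1 point a cow. In 35 cows the percentage lies between 3.70% and 24.3%, in 3 LOW RFI cows it is at most 0.0943%, and in HIGH RFI 17, with 0 reads of BOLA-DQA5, the open triangle marks the limit of 0.571% that 3 reads would give.

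The counted reads of the DQ chains did not keep step with those of BOLA-DRA in every cow, a pattern chosen for description after the values were seen. Low expression, a haplotype without the gene and uncounted reads of an unlike allele cannot be told apart in these values. BOLA-DQA5 stood at 0.0480% of BOLA-DRA RPKM in LOW RFI 4 (28 reads against 81248), at 0.0533% in LOW RFI 15 (9 against 23492) and at 0.0943% in LOW RFI 11 (9 against 13283). The next lowest cow, LOW RFI 18, had 3.70%, and no cow lay between. HIGH RFI 17 had 0 reads of BOLA-DQA5, which allows up to 0.571% of its BOLA-DRA level, since only 731 BOLA-DRA reads were there to compare. BOLA-DQB was also low in the same 3 LOW RFI cows, at 0.7001%, 1.10% and 0.847% of BOLA-DRA, in a range that reached 33.5%. HIGH RFI 17 stood at 1.58%, from 7 reads of BOLA-DQB, and the next lowest cow, LOW RFI 20, at 4.65%. BLA-DQB, in contrast, lay between 119% and 248% of BOLA-DRA in all 39 cows.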

How the data were processed

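RNA from milk cells, collected through a cannula and extracted with Trizol, was made into TruSeq libraries, per the labels' protocols. The authors deposited 1 table of RPKM for 21661 features in 39 cows. The submitters' processing notes name build ARS-UCD1.2. How reads were aligned and counted, and whether by strand, is not given in the sources used here. No column belonged to an unknown sample. The 135 rows that shared a symbol were summed, which left 21590 genes. Whole reads were recovered from the deposited RPKM (99.998% of values whole within 0.05 reads, in 16693 features). Features counted there only if their reads came out near whole, so this share follows from the choice and does not check the counts. The library totals were taken as the largest that gave whole gene lengths. The recovery gave these totals and all read counts and read limits stated here, and of the tests the recovered reads entered only limma-voom. Intervals and limits cover counting error only.

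Groups were compared with limma-trend (limma 3.58.1, R 4.3.3) on log2(RPKM + 1), a scale that understates changes of low genes, with Benjamini-Hochberg adjustment over 10636 genes. The fit was tried on the real values with group means taken out and cows shuffled, 200 genes being changed by a log2 of 1. Of these, 77.3% were found, and at most 3 false calls arose in any of 10 draws. Shuffling breaks any tie of group with month or milk protein share, so these figures do not cover such ties. The changed genes were drawn at random from all 10636. The share found was not measured for the 7 genes, whose standard errors reached 0.48 (CD74). Ratios and correlations used two-sided permutation tests with 100000 resamples (numpy 2.4.6). The comparisons within a month used exact permutation tests (scipy 1.17.1). The cow is the replicate. Genes named are the 7 with rows, of each pathway list the 3 of highest mean and the one of smallest p, and the 3 most like each of the 7. Any others were picked with their values in view. The genes and lists were chosen with earlier results of these data known. The plan counted all 8 genes, and without BOLA-DRB3 it left 21 pairs, 42 score relations and 5 ratios. The RefSeq gene table used is of assembly ARS-UCD2.0 and gave names only.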

Additional observations from a re-analysis of the deposited data

How the results depend on the processing

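No setting called any of the 7 genes, but settings moved their estimates. Genes called over the whole table numbered 0 in limma-trend, 2213 with array weights and 1968 with limma-voom and quality weights. They numbered 0 with limma-voom alone and with array weights and month. In the fits with 2213 and 1968 calls, BOLA-DMA, BOLA-DMB and BOLA-DOA had an unadjusted limma p under 0.05. So had 3773 and 3531 of all 10636 genes, respectively. The lowest adjusted limma p of the 7 genes was 0.0542 and 0.0794 there, both for BOLA-DOA. The LOW minus HIGH RFI estimate turned positive with month as a factor for BOLA-DRA (0.11), CD74 (0.15) and BOLA-DMA (0.0039), with cell type scores as covariates for BOLA-DRA (0.19), CD74 (0.20), BOLA-DMA (0.044), BOLA-DMB (0.017) and CIITA (0.00030), and without the 8 marked libraries for CD74 (0.068), where the median over the 7 was -0.082. Under quantile normalization and rescaling without milk protein genes all 7 stayed lower, with medians of -0.28 and -0.31 against all-gene medians of 0.02 and -0.03; without HIGH RFI 1 the median was -0.31. The ratio of BOLA-DOA to BOLA-DMA turned to -0.11 with a pseudocount of 0.1, -0.093 with none, -0.038 without marked libraries and -0.084 with month, and that of CIITA to BOLA-DRA to -0.048 without marked libraries and -0.13 with month. The median r over pairs was 0.742 with the mammary epithelial, neutrophil and macrophage scores taken out, 0.774 without the 4 least correlated libraries and 0.795 under quantile normalization. Without those 4 libraries the r with the T cell score turned negative for BOLA-DRA (-0.129), CD74 (-0.141) and CD86 (-0.238). Among ratio relations that had not passed, r turned sign for CD74 to BOLA-DRA with B and plasma (-0.075) and T cell scores (-0.028), BOLA-DMB to BOLA-DMA with T cell (-0.044), BOLA-DOA to BOLA-DMA with dendritic cell (-0.126) and mammary epithelial scores (-0.0075), CIITA to BOLA-DRA with dendritic cell (-0.282) and CD86 to BOLA-DRA with macrophage scores (0.083), and, rescaled, for BOLA-DOA to BOLA-DMA with macrophage (0.0049) and CIITA to BOLA-DRA with dendritic cell scores (-0.011). The cause of these shifts was not tested. The fit with array weights and month stopped short of convergence. BOLA-DOA, at as few as 4 reads, is limited by depth. No paired analysis was possible because replicate numbers were given in label order and link no cows.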
